A study of Drosophila melanogaster with 4 samples.

Results

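Broad RPD3 domains are the widest stretches of the genome that the combined list of both ChIP replicates calls as 1 uninterrupted region of RPD3 enrichment. The domains were chosen by their width in that list, and a domain here is a region of at least 10 kb in that list on the main chromosome arms X, 2L, 2R, 3L or 3R. There were 321 of them among 7145 regions in the combined list, 6929 of which lay on the main arms, and none of the 216 regions off the main arms was as wide. The data came from 4 samples of nuclei from wild-type Oregon-R (Oregon-R-modENCODE) larvae at the third instar: 2 ChIP samples with the antibody RPD3-Q3451 and 2 Input samples without an immunoprecipitation, which served as background for the ChIP list of the same replicate number. Genotype, strain and stage were shared by all samples, no treatment was named, and the labels name no tissue, so the chromatin comes from a mixture of cell types. Whether a domain was bound in few cells or weakly in many cannot be told apart in such samples. Nothing in the labels says that the replicates were separate collections, and their spread may therefore be technical.

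RPD3 is a class I histone deacetylase, the fly relative of mammalian HDAC1 and HDAC2. It removes acetyl groups from histone tails and works inside corepressor assemblies such as the Sin3, NuRD and CoREST complexes, which DNA-binding factors bring to their target genes. Deacetylases of this class are found at active and at silenced genes. A ChIP-seq region reports where chromatin pulled down by the antibody gave more reads than Input, and its width depends on how far the signal stays above the caller's threshold. The lists hold 1 score per region and no read counts, so depth is unknown, and the scale of the authors' score is unstated. The lists give positions on release 5 of the fly genome and no genes, so domains are named by position and whether they lie in genes, exons or introns was not analysed here.

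The domains were 10004 to 33775 bp wide, with a median of 12419 bp and 25th to 75th percentiles of 10956 to 15303 bp. Of the 321, 138 were under 12 kb, 99 were 12 to 15 kb, 62 were 15 to 20 kb, 15 were 20 to 25 kb and 7 were wider. Together they covered 4.41 Mb, which was 3.70% of the main arms. They were 4.63% of the regions on these arms and held 18.3% of the 24.1 Mb that the regions covered. Width in this list chose the domains, so these values describe them and no test was made. The 3 narrowest lay at 19084344 to 19094347 of 3L (10004 bp), 8040407 to 8050414 of 2L (10008 bp) and 19268129 to 19278139 of 2R (10011 bp). The 3 regions just short of the minimum were all on 2R, at 7868731 to 7878715 (9985 bp), 17571742 to 17581704 (9963 bp) and 16525088 to 16535043 (9956 bp). Replicate 1 covered 91.4%, 66.7% and 92.0% of the 3 narrowest domains, and 95.6%, 85.1% and 83.0% of the 3 regions below the minimum. Replicate 2 covered 96.3%, 70.0% and 64.8% of the same domains, and 93.4%, 95.9% and 86.3% of the regions below it. The minimum thus ran between regions that did not stand apart in width or in fill.

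All 5 main arms carried broad domains, at different densities. Arm 2R held 72, or 3.40 per Mb, 3R held 81 (2.90 per Mb), 3L held 64 (2.61), 2L held 56 (2.43) and X held 48 (2.14). Regions of any width gave 67.3 per Mb on 2R, 57.6 on 3R, 56.7 on 3L, 51.5 on 2L and 58.9 on X. The share of an arm's regions that were broad was 3.63% on X and between 4.60% and 5.06% on the autosomal arms. The order of the arms was not stable. Clusters of at least 10 kb in the replicates' own lists numbered 37 and 10 on 2R, 39 and 20 on 3R, 27 and 16 on 3L, 29 and 16 on 2L and 21 and 2 on X in replicates 1 and 2. Per Mb, 2R was highest in replicate 1 (1.75) and 3R in replicate 2 (0.717), while X was lowest in both (0.937 and 0.0892).

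With the 5 main arms pooled, the domains were scarce at the centromere end and most frequent at the telomere end. The 10% of each arm nearest the centromere held 11 domains, or 0.924 per Mb, and the 10% nearest the telomere held 51, or 4.28 per Mb. Each bin of 10% between them held 27 to 35. Regions of any width were also fewer in the centromere bin, at 38.8 per Mb, against 68.3 per Mb in the telomere bin. The broad share of the regions was 2.38% in the centromere bin, 6.27% in the telomere bin and 3.76% to 5.23% between them. The arms did not share this pattern evenly. In the 2 Mb at the telomere end there were 14 domains on 2R, 9 on 3L, 7 on X, 6 on 2L and 4 on 3R, and in the 2 Mb at the centromere end there were 7 on 3R, 1 each on X, 2L and 3L, and 0 on 2R. On 3R the comparison of the ends depended on the length taken, since the 3 equal parts of that arm held 23 domains at the centromere, 23 in the middle and 35 at the telomere. In the same order, these parts held 9, 21 and 26 on 2L and 17, 21 and 26 on 3L. On 2R the middle part held most, with 17, 32 and 23, and X had 16, 14 and 18. The lists do not tell which part of the sequence near the centromeres allowed read placement, and few domains there are no sign that RPD3 was missing.

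**Figure D1:**
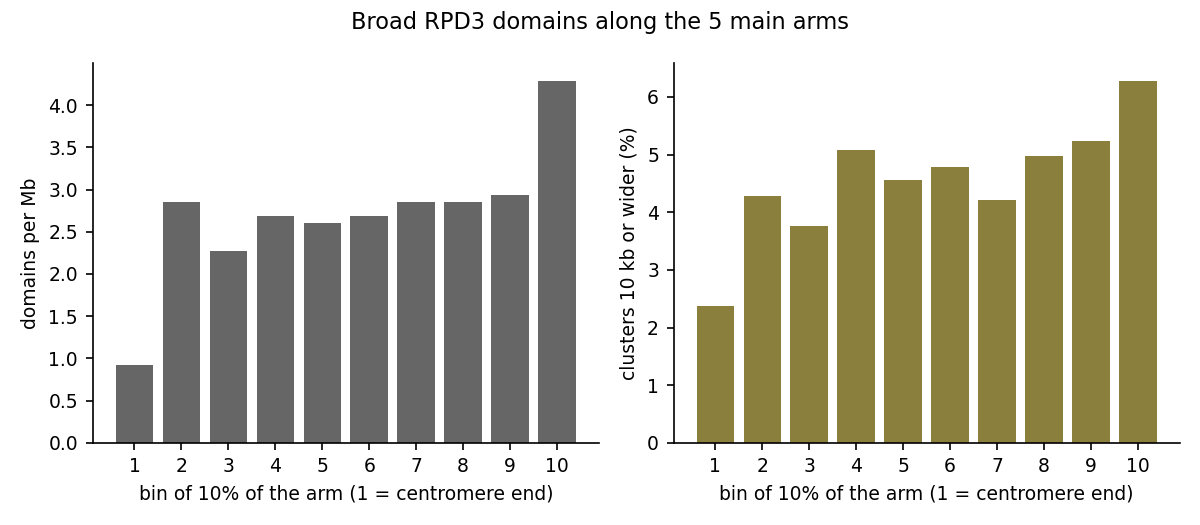
Broad RPD3 domains per Mb (left) and the percentage of all combined regions that were at least 10 kb wide (right), in bins of 10% of arm length from the centromere end, with the 5 main arms pooled. The bin at the centromere had 0.924 domains per Mb and the bin at the telomere had 4.28.

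In windows of 1 Mb, the number of domains followed the number of regions only loosely. Each region was counted in the window that holds its midpoint. Over the 117 complete windows there were 0 to 8 domains, with a median of 2, and 10 windows held no domain midpoint. Across windows, the counts of domains and of all regions correlated with a rho (Spearman) of 0.50 and an r (Pearson) of 0.47, where the domains are themselves among the regions. The richest windows were 2 to 3 Mb of 2L, with 8 domains among 54 regions, and 19 to 20 Mb of 2R, with 8 among 79. By contrast, the window at 2 to 3 Mb of 3R held 57 regions and no domain. The longest stretch without a domain ran from 13836715 to 16820971 of 2L, 2.98 Mb with 102 narrower regions. The next were the first 2.51 Mb of 2R, at its centromere end, with 89 narrower regions, and 1624604 to 3726925 of 3R, 2.10 Mb with 88.

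Many domains had another domain close by. The nearest other domain lay within 50 kb for 131 of 321, which is 40.8% (Wilson 95% interval 35.6 to 46.3%, counting error only). A neighbour counts for both domains of a pair, so these counts are not independent and the interval is too narrow. Of the narrower regions on the arms, 32.6% had a domain within the same distance. For regions of 5 to 10 kb this share was 39.0%, close to that of the domains, and for regions under 5 kb it was 31.3%. By arm, the share of domains with such a neighbour was 53.1% on 3R, 48.4% on 3L, 39.3% on 2L, 33.3% on 2R and 22.9% on X. The median distance to the nearest domain was 81197 bp. The remaining 190 domains stood alone at this distance. The 131 formed 56 runs, of which 44 held 2 domains, 7 held 3, 3 held 4 and 2 held 5.

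The runs of 5 both lay on 3R. That at 11028893 to 11194386 spanned 165494 bp, 54.1% of it within domains, and replicates 1 and 2 covered 64.7% and 59.6% of the span. Its domains were 28110, 19393, 12854, 14429 and 14736 bp wide. The run at 25567636 to 25704618 spanned 136983 bp, 45.6% of it within domains, and replicates 1 and 2 covered 53.7% and 39.1%. The 3 runs of 4 were at 19503807 to 19646376 of X and at 3142275 to 3233547 and 9350446 to 9455921 of 3L. On 3L, domains took up 56.5% and 58.1% of these runs, and on X they took up 37.8%. The tightest run of 3, at 23076710 to 23118044 of 3R, was 94.6% domain. Replicates 1 and 2 covered 90.9% and 63.9% of it.

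Some neighbouring domains were divided by short gaps only, and no replicate cluster spanned these gaps. There were 19 pairs of domains less than 5 kb apart, 8 of them less than 1 kb apart. No cluster of either replicate spanned the gap of any of the 19 pairs. The closest pair, at 11151145 to 11163998 and 11164185 to 11178613 of 3R, was 186 bp apart, and the next, at 516968 to 532196 and 532398 to 552595 of X, was 201 bp apart. Neither replicate had a covered base in these 2 gaps. In 10 of the 19 gaps replicate 1 had no covered base, and in 16 of them replicate 2 had none. The combined list was built from the same samples, so it is not independent of the replicate lists.

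The surroundings of the domains were also rich in RPD3, about as rich as those of regions of 5 to 10 kb. In the 50 kb on either side, regions covered a median of 32.4% around domains, against 30.3% around regions of 5 to 10 kb and 26.0% around regions under 5 kb. The median distance to the next region of any width was 681 bp for domains, 779 bp for regions of 5 to 10 kb and 1649 bp for those under 5 kb. A region within 500 bp was found for 125 domains (38.9%), against 38.4% of the regions of 5 to 10 kb and 25.6% of those under 5 kb.

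Each domain was found in both replicates, and most of its length lay under replicate clusters. All 321 overlapped clusters of both replicates by at least 1 bp, where 54.3% of all regions on the arms did, 69.9% of them in replicate 1 and 59.2% in replicate 2. Wide regions overlap more readily by position alone, and 98.8% of regions of 5 to 10 kb also overlapped both. Replicate 1 clusters filled a median of 92.0% of a domain (25th to 75th percentiles 87.1 to 96.9%, lowest 62.3%), and replicate 2 clusters filled 82.4% (74.4 to 89.4%, lowest 29.8%). The mean of these medians was 87.2% ± 6.80 (SD, n = 2). Regions of 5 to 10 kb had medians of 92.0% in replicate 1 and 80.4% in replicate 2, so the fill of domains was close to that of the next narrower class. Replicate 1 filled more than replicate 2 in 260 domains and less in 60. Of all domain bases, 76.9% were covered in both replicates, 14.0% in replicate 1 alone, 3.76% in replicate 2 alone and 5.30% in neither. The Jaccard index of the replicates, bases covered in both divided by bases covered in either, was 0.812 inside the domains and 0.667 on the rest of the arms. The domains were chosen by width from a list built from the same replicates, so a higher index inside them can follow from the choice. No index was computed for regions of 5 to 10 kb.

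**Figure D2:**
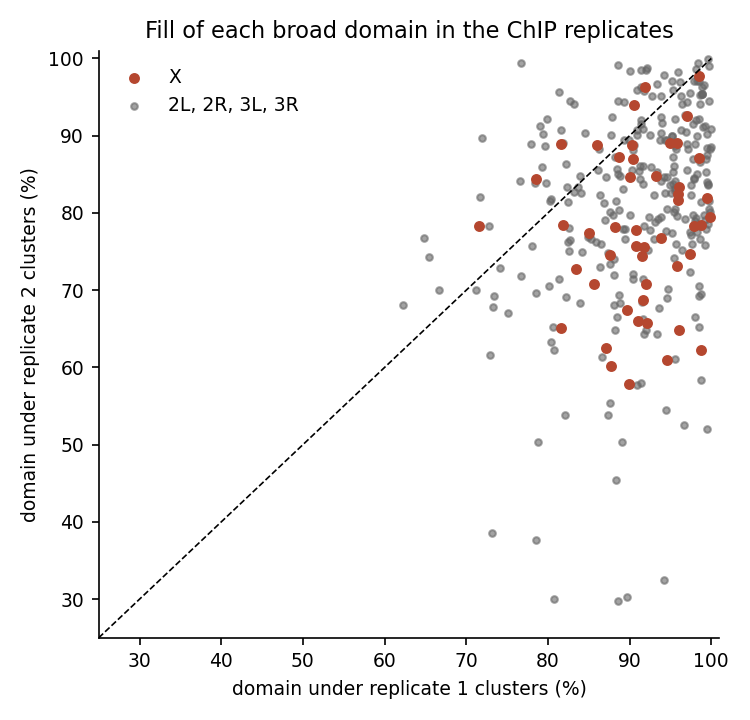
Share of each of the 321 broad domains under clusters of replicate 1 (x axis, %) and of replicate 2 (y axis, %), with the 48 domains of X in red and those of the autosomal arms in grey. The dashed line marks equal shares. There were 260 domains below it and 60 above it.

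The fill of a domain in 1 replicate said little about its fill in the other. Spearman's rho between them was 0.28 and Pearson's r 0.26 over the 321 domains, which share libraries and a combined call. Domains with higher scores in the combined list were somewhat fuller, with a rho of 0.25 in both replicates. Width had little relation to fill, with a rho of 0.068 in replicate 1 and 0.085 in replicate 2. The scores of the replicate clusters within a domain, averaged by their overlap, ranked far more alike, with a rho of 0.84 between replicates. Replicates thus ranked the domains alike by score while filling them to different extents.

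Most domains were broken into pieces in at least 1 replicate. Clusters of replicate 1 per domain averaged 1.83 and those of replicate 2 averaged 2.23, a mean of 2.03 ± 0.286 (SD, n = 2). There were 126 domains with 1 piece in replicate 1 and 69 in replicate 2. In replicate 1, 195 domains (60.7%) held 2 or more pieces, where 7.3% of all regions on the arms did, and in replicate 2, 252 domains (78.5%) did, where 8.89% of all regions did. A wide region has room for more clusters than a narrow one. Per 10 kb, domains held 1.33 pieces in replicate 1 and 1.62 in replicate 2, against 1.81 and 1.90 in regions of 5 to 10 kb. This count includes the first piece of each region, which weighs more in a narrow region. It therefore does not show that domains were less broken. Of the regions of 5 to 10 kb, 23.3% held 2 or more pieces in replicate 1 and 30.3% in replicate 2, with means of 1.24 and 1.31 pieces. Only 39 domains were 1 piece in both replicates, 87 were whole in replicate 1 and split in replicate 2, 30 were split in replicate 1 and whole in replicate 2, and 165 were split in both. Domains under 12 kb averaged 1.66 pieces in replicate 1 and 1.86 in replicate 2, and the 7 domains of 25 kb or more averaged 2.43 and 3.86.

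**Figure D3:**
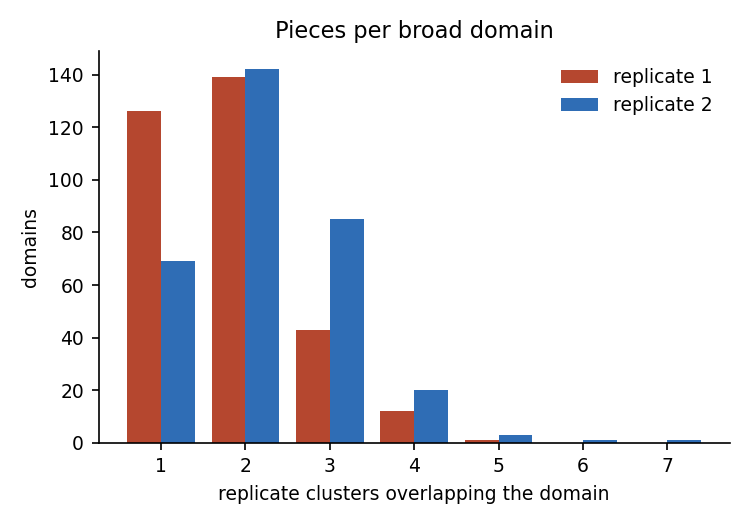
Number of broad domains (y axis) by the number of replicate clusters that overlap them (x axis), for replicate 1 in red and replicate 2 in blue. A single piece was found in 126 domains in replicate 1 and in 69 in replicate 2, and 2 pieces in 139 and 142.

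A domain seen as 1 broad region in the combined list was often not broad in either replicate. A replicate 1 cluster covered at least 90% of 99 domains (30.8%, Wilson 95% interval 26.0 to 36.1%). Such a cluster was found for 46.8% of regions of 5 to 10 kb and for 38.2% of all regions on the arms. The share over all regions also counts those without any replicate cluster. In replicate 2, 1 cluster covered at least 90% of 24 domains (7.48%, 5.08 to 10.9%), against 21.8% of regions of 5 to 10 kb and 20.8% of all regions. In 14 domains 1 cluster reached 90% in both replicates. The lists of replicates 1 and 2 held 153 and 64 clusters of at least 10 kb on the main arms, the widest 25451 and 19721 bp, and each of them overlapped exactly 1 domain. There were 48 domains with such a cluster in both replicates, 103 in replicate 1 alone, 15 in replicate 2 alone and 155 (48.3%) in neither. The domains broad in both had a median width of 16466 bp and those broad in neither had 11612 bp. Their median scores were 1.15 and 1.04. A domain little wider than 10 kb can miss this minimum in a replicate that leaves only a small part of it open. The count of domains broad in neither therefore depends on this minimum.

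The breaks between pieces were short, and part of them overlapped between the replicates. There were 264 breaks in replicate 1, with a median width of 429 bp (25th to 75th percentiles 162 to 879 bp) and a maximum of 4733 bp. Replicate 2 had 395, with a median of 636 bp (235 to 1232 bp) and a maximum of 5745 bp. In replicate 1, 210 breaks were under 1000 bp and 12 were over 2000 bp, and in replicate 2, 265 and 35 were. Of the breaks of replicate 1, 132 (50.0%) overlapped a break of replicate 2, and of those of replicate 2, 130 (32.9%) overlapped a break of replicate 1. Overlapping breaks had midpoints a median of 235 bp apart. They were wider than the others, with medians in replicate 1 of 610 bp for overlapping and 294 bp for other breaks, and in replicate 2 of 907 and 549 bp. A wide break overlaps another more readily by position alone, so this difference in width can follow from the definition. The share of breaks that would overlap by position alone was not computed. Replicate 1 covered 258 of the 395 breaks of replicate 2 from end to end, and replicate 2 covered 95 of the 264 breaks of replicate 1.

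The rest of the unfilled sequence lay at the ends of the domains. Replicate 1 left 399 kb of the domains open, 58.5% of it at the ends and 41.5% inside, and replicate 2 left 850.5 kb, 58.1% at the ends and 41.9% inside. The replicates thus divided their open sequence alike, although replicate 2 left more of it. At a base 1% of the width from the left edge, 51.4% of domains were covered in replicate 1 and 35.2% in replicate 2, and the same distance from the right edge gave 50.5% and 34.6%. Over the middle 60% of the width, coverage stayed between 93.5% and 96.6% of domains in replicate 1 and between 83.2% and 90.7% in replicate 2. Clusters of replicate 1 also reached more than 1000 bp beyond an edge of 11 domains, and those of replicate 2 did so for 0.

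**Figure D4:**
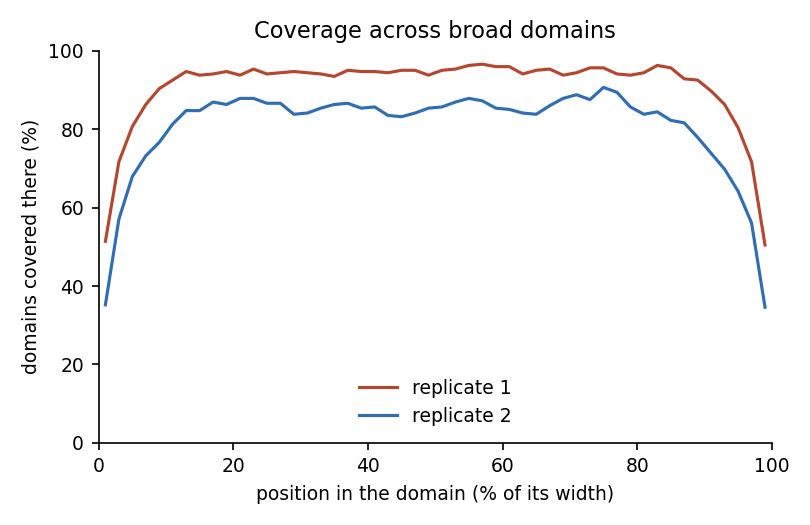
Percentage of the 321 broad domains covered by a replicate cluster (y axis) at each position in the domain, as a percentage of its width from the lower coordinate (x axis), for replicate 1 in red and replicate 2 in blue. Coverage was lower at both edges in both replicates, and over the middle 60% its lowest values were 93.5% and 83.2%.

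The widest domains were seldom whole. Of the 10 taken as 2 per arm, replicate 1 filled 8 to at least 90% and replicate 2 filled 3 to that extent. Over all 321 domains, 200 were filled to that extent in replicate 1 and 73 in replicate 2. The counts over 10 domains do not set the widest apart in fill. Of all domains, 126 were 1 piece in replicate 1 and 69 in replicate 2. The domain at 8230855 to 8261463 of 3R (30609 bp, score 1.24) had 2 pieces in each replicate. Replicate 1 filled 99.1% of it with a break of 280 bp, while replicate 2 filled 79.7% with a break of 5662 bp. On 2R, the domain at 15318294 to 15345275 (26982 bp) was 1 cluster in replicate 1 that filled 94.3% of it, and 5 clusters in replicate 2 that filled 82.6%. On X, that at 1751090 to 1779951 (28862 bp) had 4 pieces in each replicate, which filled 78.5% and 84.4%. The next widest on X, at 19529954 to 19550907 (20954 bp), was 97.8% filled by 3 pieces of replicate 1 and 78.3% by 4 pieces of replicate 2. The widest domain of all, at 7032835 to 7066609 of 3R (33775 bp), had its largest open stretches at the ends in replicate 1, of 1013 and 1578 bp, beside a break of 225 bp. The domains at 2738859 to 2763132 of 2L, 5454471 to 5483074 of 2R and 5748403 to 5774567 of 3L each had 2 pieces in replicate 1 and 3 in replicate 2. In that at 9350446 to 9373148 of 3L (22703 bp), 3 pieces in each replicate filled 80.2% and 81.6%. Of these 10 domains, the one with the highest mean fill over both replicates, 97.5%, was that at 11985110 to 12008746 of 2L (23637 bp). There replicate 1 had 1 cluster of 23140 bp, and replicate 2 had clusters of 3241 and 19721 bp with 79 bp between them.

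**Figure D5:**
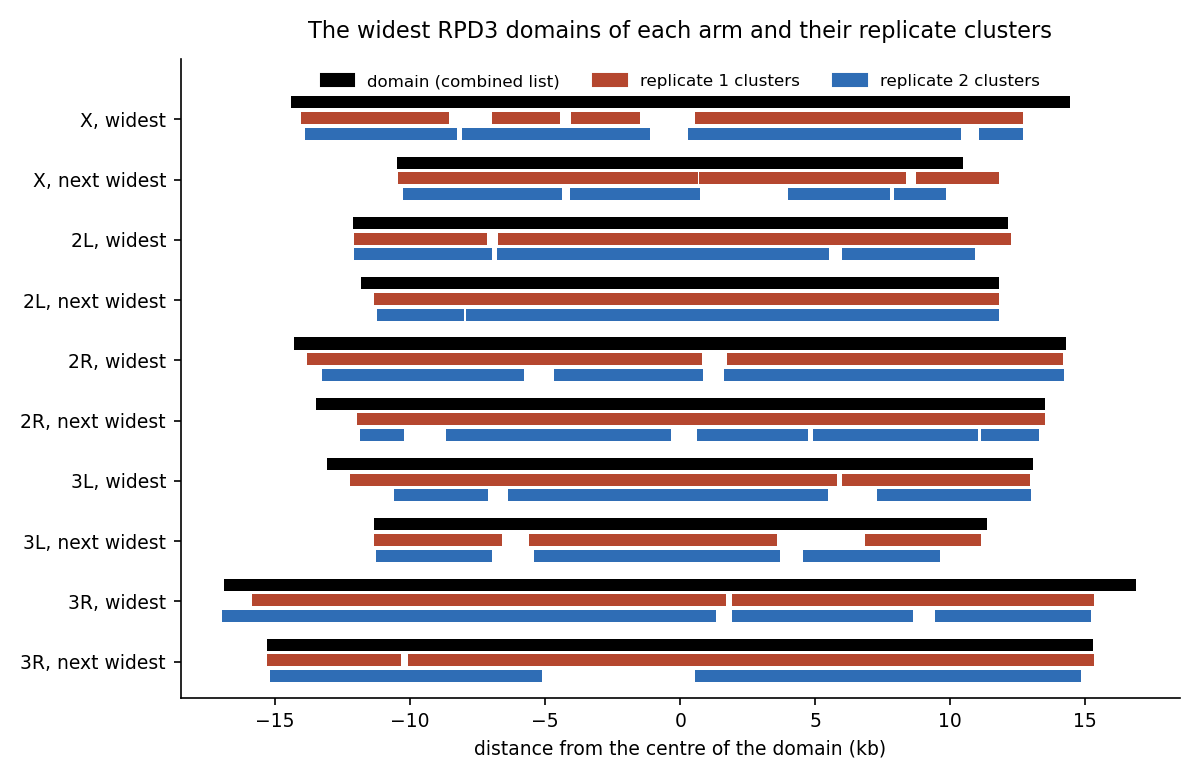
The 2 widest broad domains of each arm (black) with the clusters of replicate 1 (red) and replicate 2 (blue), drawn to scale by distance from the domain's centre in kb. Breaks in the red and blue bars are stretches under no replicate cluster, such as the 5662 bp break of replicate 2 in the next widest domain of 3R.

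The 5 domains with most pieces summed over the replicates were 15041 to 28862 bp wide. Whether the scores of their pieces were more unequal than in other domains was not tested. The domain at 11028893 to 11057002 of 3R (28110 bp) had 4 pieces in replicate 1, which filled 94.5%, and 7 in replicate 2, which filled 77.7%. Its pieces scored 0.416 to 1.43 in replicate 1 and 0.764 to 1.76 in replicate 2. The domain at 20848001 to 20871860 of 3R (23860 bp) had 5 pieces in replicate 1 and 4 in replicate 2, with fills of 87.6% and 55.5%. The next ones lay on 2R. That at 7089509 to 7104549 (15041 bp) had 4 pieces in each replicate with fills of 96.6% and 52.5%, and that at 7771390 to 7789738 (18349 bp) had 4 in each with fills of 81.4% and 71.5%. The X domain at 1751090 to 1779951, described above, was the fifth.

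Some domains lay almost wholly under 1 cluster in each replicate. The widest that 1 cluster covered to at least 90% in both lay at 4964946 to 4983305 of 2L (18360 bp), where single clusters filled 98.4% in replicate 1 and 99.5% in replicate 2. Another on 2L, at 4450640 to 4467955 (17316 bp), was filled to 95.4% and 96.0% by single clusters with scores of 1.54 and 1.56. A further one at 21152917 to 21169921 of 2L (17005 bp) was the last domain before the centromere end of that arm. Replicate 1 filled 99.7% of it with 2 pieces that lay 43 bp apart, and replicate 2 filled 99.0% with 1 cluster. The other 2 lay at 253429 to 267135 of 3R (13707 bp), with fills of 99.7% and 94.6%, and at 3708844 to 3722016 of 2R (13173 bp), with 91.8% and 95.8%.

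Among the domains with the lowest mean fill, replicate 2 covered less than replicate 1 in each. Replicate 2 filled less than 50% of 7 domains, and replicate 1 did so for 0. At 25693203 to 25704618 of 3R (11416 bp), both replicates had a cluster at the left end, with scores of 2.05 in each, and replicate 1 alone went on with 2 clusters that scored 0.671 and 0.572. Replicate 1 filled 88.6% of this domain and replicate 2 filled 29.8%. At 16454686 to 16467483 of 3R (12798 bp), replicate 2 had 1 cluster of 3845 bp with a score of 2.15, inside a replicate 1 cluster of 8896 bp with a score of 1.47, and the fills were 80.7% and 30.0%. The domain at 12922069 to 12934487 of 2R (12419 bp) had the lowest score of all, 0.528, with fills of 94.3% and 32.4%. That at 25607403 to 25618900 of 3R (score 0.561) had fills of 89.7% and 30.3%. Those at 19981252 to 19991543 of 2R and 20467210 to 20478773 of 3R held 1 replicate 2 cluster each, with fills of 73.2% and 78.6% in replicate 1 and of 38.6% and 37.6% in replicate 2. The widest difference the other way was at 321729 to 333648 of 3L (11920 bp), where replicate 1 had 2 clusters with a break of 2059 bp that filled 76.7%, and replicate 2 had 1 cluster that filled 99.4%. Next were 23781885 to 23792739 of 3R, with 71.9% in replicate 1 and 89.7% in replicate 2, and 5079358 to 5090059 of 3R, with 81.4% and 95.6%.

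On every arm the domains held more pieces in replicate 2 than in replicate 1, and X did not stand apart in their number. X domains averaged 2.29 pieces in replicate 2 and 1.94 in replicate 1, against 2.22 and 1.81 on the autosomal arms, and 2.49 and 1.75 on 2R. Per 10 kb, replicate 2 had 1.61 pieces on X, against 1.63 on the autosomal arms. The largest piece made up a median of 47.0% of an X domain in replicate 2 and 67.0% in replicate 1, against 51.8% and 74.2% on the autosomal arms, where 2R had 46.1% and 80.2%. In replicate 2 no cluster covered 90% of any X domain, 0 of 48, which allows a share of up to 6.25% (3 counts of the total, counting error only), against 24 of 273 (8.79%) on the autosomal arms. By arm this share was 5.56% on 2R, 6.17% on 3R, 9.38% on 3L and 16.1% on 2L. The shares of 2R and 3R thus lay within the limit for X. In replicate 1 the counts were 11 of 48 on X (22.9%) and 88 of 273 on the autosomal arms (32.2%). Median fill on X was 91.6% in replicate 1 and 78.3% in replicate 2, against 92.3% and 83.3% on the autosomal arms. Only 2 of the replicate 2 clusters on X were at least 10 kb wide, against 21 in replicate 1, a ratio of 9.52%. On the autosomal arms there were 62 in replicate 2 and 132 in replicate 1, a ratio of 47.0%, with 27.0% on 2R and 51.3% to 59.3% on 2L, 3L and 3R. Arm 2R thus lay between X and the other arms. No test between arms was made.

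Domains had high but not extreme scores. Their median in the combined list was 1.09 (25th to 75th percentiles 0.942 to 1.21, range 0.528 to 1.81), against 1.01 (0.814 to 1.25, range 0.393 to 2.19) for regions of 5 to 10 kb and 0.430 for those under 5 kb. All 321 lay above the median of all regions on the arms, 0.489. In the top 10% of scores, from 1.25 upwards, there were 59 of the 321 domains, 253 of the 1038 regions of 5 to 10 kb and 381 of the 5570 narrower ones. As a share of its class, this was most for regions of 5 to 10 kb and least for the narrower ones. There were 85 regions on the arms that scored above the highest domain, and the widest of these was 9388 bp. Over all regions on the arms, score and width had a Spearman's rho of 0.72. Among the domains it was 0.067, and among regions of 5 to 10 kb it was 0.092, so score hardly changed with width within either class. A rho over both classes together was not computed.

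The 5 highest-scoring domains were between 10049 and 16709 bp wide. The first was at 9886896 to 9898613 of 2L (11718 bp, score 1.81), which ranked 103 in the combined list and was 1 cluster in each replicate, filling 99.7% and 99.9%. Next came 16572663 to 16589371 of 3L (16709 bp, score 1.81) with 2 pieces in each replicate and breaks of 1529 and 1333 bp, and 5976304 to 5989195 of 2L (12892 bp, score 1.73), 1 cluster in each. Both others were on 2R. The domain at 12465749 to 12478668 (score 1.70) had 2 pieces in each replicate. That at 13431357 to 13441405 (score 1.65) was 1 cluster in each, filling 98.7% in replicate 1 and 58.3% in replicate 2.

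Within each replicate's own list, the pieces of domains had higher median scores than other clusters. Domains were chosen by width in a list built from the same replicates, where score rose with width (rho 0.72 over all regions on the arms). Higher scores of their pieces can therefore follow from the choice. Pieces of regions of 5 to 10 kb were not compared. In replicate 1 the 586 pieces had a median score of 1.09 and a median width of 6389 bp, against 0.772 and 2453 bp for clusters outside domains. In replicate 2 the 716 pieces had medians of 1.07 and 3912 bp, against 0.817 and 2495 bp outside. Among clusters under 5 kb the median scores were 0.742 for pieces and 0.698 outside in replicate 1, and 0.881 for pieces and 0.748 outside in replicate 2. Such narrow clusters were 41.8% of the pieces in replicate 1 and 62.0% in replicate 2. Domains held 21.2% and 22.6% of the sequence that replicates 1 and 2 covered on the arms.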

How the data were processed

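RPD3 ChIP-seq and Input samples of larval nuclei (2 each) were used through 3 lists of enriched regions, 1 per ChIP replicate and 1 for the combined set. Alignment used Bowtie 0.12.7 according to the submitters' processing notes, and positions refer to FlyBase release 5, per the file headers. The deposited score is 1 value per region. The sources used here do not give the region caller, its thresholds, how replicates were joined or the scale of the score. Fold enrichment and read depth are unknown. Domains, members and comparisons were chosen with earlier results of these data known. Regions named were the 2 widest domains per arm, the 5 highest-scoring, least filled, most divided and widest ones under 1 cluster in both replicates, the 3 most unequal each way, the largest runs (those of 4 or 5, because of ties) and those next to the minimum. The closest pairs, the tightest run of 3, the windows and the stretches without domains were added after their values were seen. A replicate cluster overlapping a domain by at least 1 bp is a piece, and fill is the percentage of domain bases under pieces. Code (Python 3.11.15, numpy 2.4.6, pandas 2.3.3) was tested on simulated pieces. No test was made: an exact permutation test of 2 against 2 values has a smallest two-sided p of 0.333, and lists from the same samples are not independent. Intervals are Wilson 95% intervals, and the limit for a share of 0 is 3 counts of the total, both for counting error only. Alternatives were other width minima, merging of close clusters, other distances and coverages, and single replicates. A gene table of release 6 was at hand and was not set against release 5 positions.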

Additional observations from a re-analysis of the deposited data

How the results depend on the processing

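The number, extent and grouping of broad domains depended on the width minimum and on merging of combined regions. Median fill in each replicate changed little with the width minimum and with merging of replicate clusters, which can only add covered bases. It was not computed for domains from merged combined regions. With a minimum of 8 kb there were 558 domains with 6.51 Mb (27.0% of the covered sequence), at 3.88 per Mb on X, 4.48 on 2L, 6.05 on 2R, 3.95 on 3L and 5.12 on 3R, and 59.5% had another within 50 kb. Pieces in replicate 2 then averaged 1.92, and 1 cluster covered 90% of 37.1% of domains in replicate 1 and 12.01% in replicate 2. With 12 kb there were 183 with 2.90 Mb (12.03%), at 1.34, 1.74, 1.84, 1.02 and 1.76 per Mb on X, 2L, 2R, 3L and 3R, and 26.8% had a neighbour. With 15 kb there were 84 with 1.59 Mb (6.58%), at 0.714, 0.608, 0.851, 0.530 and 0.824 per Mb, 13.1% had a neighbour, pieces averaged 2.27 and 2.88 in replicates 1 and 2, and 1 cluster covered 90% of 21.4% and 4.76%. Arm 2R was highest at each minimum and in both merged lists, while the lowest was X at 8 kb, 3L at 12 and 15 kb, and 2L in both merged lists.

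Merging combined regions closer than 200 bp gave 415 domains with 5.93 Mb (24.5%), at 3.03, 3.00, 4.35, 3.30 and 3.76 per Mb, and 48.7% had a neighbour. Merging those closer than 500 bp gave 508 with 7.57 Mb (31.1%), at 3.79, 3.69, 5.25, 3.87 and 4.73 per Mb, and 53.9% had one. In the higher-scoring 50% of regions the 321 domains held 24.6% of the covered sequence, since fewer regions were left by construction. Within 20 kb 28.0% of domains had a neighbour and within 100 kb 51.4%. Using the list of 1 replicate alone gave 64 to 153 domains, 0.780 to 1.95 Mb, 4.95 to 10.3% of the covered sequence, 0.0892 to 0.937 per Mb on X, 0.695 to 1.26 on 2L, 0.473 to 1.75 on 2R, 0.652 to 1.10 on 3L and 0.717 to 1.40 on 3R, and 12.5 to 28.1% with a neighbour.

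Merging replicate clusters closer than 200 bp raised the share of domains that 1 cluster covers to 90% to 42.4% in replicate 1 and 11.8% in replicate 2. At 500 bp it was 54.5% and 19.6% with 1.37 and 1.68 pieces, and at 1000 bp 67.6% and 29.6% with 1.17 and 1.40 pieces. A coverage of 75% gave 47.4% and 18.4%, and one of 95% gave 23.1% in replicate 1. Median fill stayed between 92.0% and 95.1% in replicate 1 and between 81.6% and 85.1% in replicate 2, and both replicates joined filled a median of 96.3%. Pooled over all bases of the domains, the fill was 90.9% in replicate 1 and 80.7% in replicate 2. The cause of the difference between the replicates was not tested, and unknown depth limits what an unfilled stretch means. No paired analysis was possible because no region list describes an Input sample by itself.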
